A study of Mus musculus with 9 samples.

Results

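Leptin and other hormones and secreted proteins of adipocytes, together with the natriuretic peptide clearance receptor, were followed across the mouse fat of 3 Lmna genotypes. The 9 genes were chosen by name: Lep (leptin), Adipoq (adiponectin), Retn (resistin), Cfd (complement factor D, or adipsin), Rbp4 (retinol binding protein), Rarres2 (chemerin), Apln (apelin), Agt (angiotensinogen) and Npr3. Each was read from the probe sets that carry its symbol and no other in the platform annotation, 59 of 229581 probe sets. They make up 9 of the 16299 genes with such a probe set, and all 9 were among the 11342 genes tested.

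Total RNA of perigonadal white adipose tissue, the fat pad beside the gonads, was hybridised to Affymetrix exon arrays, with 3 arrays for each genotype and 9 in all. Every mouse was 4 months old and untreated. The first group was homozygous for the G609G allele of Lmna (G609G), the second homozygous for its LCS allele (LCS), and the third was wild type (WT). Lmna encodes lamins A and C of the nuclear envelope. G609G is a knock-in progeria allele that yields progerin, a shortened lamin A, and mice homozygous for it are short-lived and lose body fat. LCS is a knock-in allele that leaves lamin C as the product of the gene, with no lamin A. The labels name no further allele, no sex and no strain, and do not say whether animals were pooled, so p-values measure the spread between these arrays only.

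The median over probe sets lay between 6.52 and 6.63 (log2 intensity) on the G609G arrays, between 7.19 and 7.26 on the LCS arrays and between 7.17 and 7.28 on the WT arrays. Over all genes tested the median log2 fold was -0.47 for G609G against WT, 0.05 for LCS against WT and -0.48 between the mutants, so folds as deposited are given with their value relative to the median gene for the 9 genes in G609G minus WT, and for any other gene fold printed here where that scaling changed the call. Of 32 tested genes of mature adipocytes, 28 (87.5%) were called lower and 4 (12.5%) higher in G609G than in WT as deposited. Of all genes, 71.3% were called lower and 8.26% higher there. Of the 32, 21 (65.6%) were lower and 9 (28.1%) higher relative to the median gene, against 36.7% and 34% of all genes. The median log2 fold of the 32 as deposited was -1.02. Among the brightest of them Cidec, a lipid droplet protein, averaged 12.83 ± 0.02 in G609G, 13.41 ± 0.04 in LCS and 13.22 ± 0.00 in WT (SD, n = 3 arrays each). The mean over 33 mature adipocyte genes ranged from 10.14 to 10.23 on the G609G arrays, from 11.32 to 11.35 on the LCS arrays and from 11.12 to 11.17 on the WT arrays. The mean over 17 skeletal muscle genes was 11.29 to 11.37 on the G609G arrays, 5.75 to 5.80 on the LCS arrays and 5.53 to 5.63 on the WT arrays, with 9 of the 17 under the gene filter of 5.09 in LCS and 9 in WT. The mean over 18 genes of epididymis and testis was 7.71 to 7.76 in G609G, 9.41 to 9.42 in LCS and 10.72 to 10.73 in WT. The part of these tissues in the results on the adipokines was not tested, and in whole tissue fewer cells of a type and less RNA per cell cannot be told apart.

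White fat is an endocrine organ as well as a store of triglyceride. Leptin circulates in proportion to fat mass and acts on hypothalamic neurons to restrain feeding, whereas adiponectin raises insulin sensitivity in liver and muscle and in obesity falls as fat mass grows. The other products act nearer to the vessel wall and the immune system: adipsin starts the alternative complement pathway, chemerin attracts leukocytes and acts on adipocytes, angiotensinogen is cut to angiotensins, apelin acts on blood vessels, and the clearance receptor removes natriuretic peptides that would otherwise drive lipolysis.

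The promoters of Lep and Agt are shown because these genes moved furthest down and furthest up of the 9 in G609G fat. Each sequence is the 250 bases before the start of the gene, from RefSeq on build GRCm38.p6, written 5′ to 3′ on the strand of the gene, at chr6:29059971-29060220 (+) for Lep and chr8:124569707-124569956 (-) for Agt. Capitals mark a GC box and a C/EBP site in Lep and a TATA box in Agt.
Lep: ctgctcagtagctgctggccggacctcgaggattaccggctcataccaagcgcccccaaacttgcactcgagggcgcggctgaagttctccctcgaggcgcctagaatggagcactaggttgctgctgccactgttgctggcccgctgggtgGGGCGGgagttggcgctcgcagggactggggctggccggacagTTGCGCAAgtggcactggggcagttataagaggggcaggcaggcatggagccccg
Agt: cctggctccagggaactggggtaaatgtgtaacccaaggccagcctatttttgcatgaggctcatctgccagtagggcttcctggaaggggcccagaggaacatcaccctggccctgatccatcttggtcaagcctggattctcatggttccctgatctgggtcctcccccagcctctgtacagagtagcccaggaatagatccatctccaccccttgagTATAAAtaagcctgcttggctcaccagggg

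Both strands were searched for fixed letters in that window. The C/EBP letters TTGCGNAA, read as TTGCGCAA in Lep at positions -55 to -48 from the start and the same on either strand, occurred in 0.67% of 32851 mouse promoters. The GC box GGGCGG of Lep lay at -98 to -93 and occurred in 32.7% of promoters, and the TATA box TATAAA of Agt lay at -30 to -25 and occurred in 12.4%. Promoters were found for 8 of the 9 genes, with 2 starts for Rbp4 and none for Rarres2. The C/EBP letters were found in none of the 8 other promoter windows, the TATA box also in Rbp4, the GC box also in Rbp4 and Apln, and the letters CCAAT (33.8% of promoters) in Adipoq, Rbp4 and Npr3. Further motifs were searched in the same way. The PPAR DR1 element (0.0335% of promoters) and the E-box (6.02%) were found in none of the 9 promoter windows. The glucocorticoid receptor half-site (16.1%) was found in Npr3 alone. All hits are matches of letters, and no binding was measured.

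As deposited, 7 of the 9 genes were lower in G609G fat than in WT fat, Agt was higher, and Cfd did not pass the test (limma, Benjamini-Hochberg adjusted p under 0.05 over all genes tested). Of all genes, 71.3% were called lower and 8.26% higher in that comparison, so a fall by itself was common. Lep and Npr3 stood at the low end, with 12 and 68 of 11342 genes showing a lower fold, and Agt at the high end, with 225 genes showing a higher one. In LCS fat 5 genes were higher than in WT, against 22.5% of all genes, and Agt was the single gene called lower, against 13%. In G609G minus LCS 7 genes were lower and 1 was higher, against 70.5% and 9.38% of all genes.

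**Figure D1:**
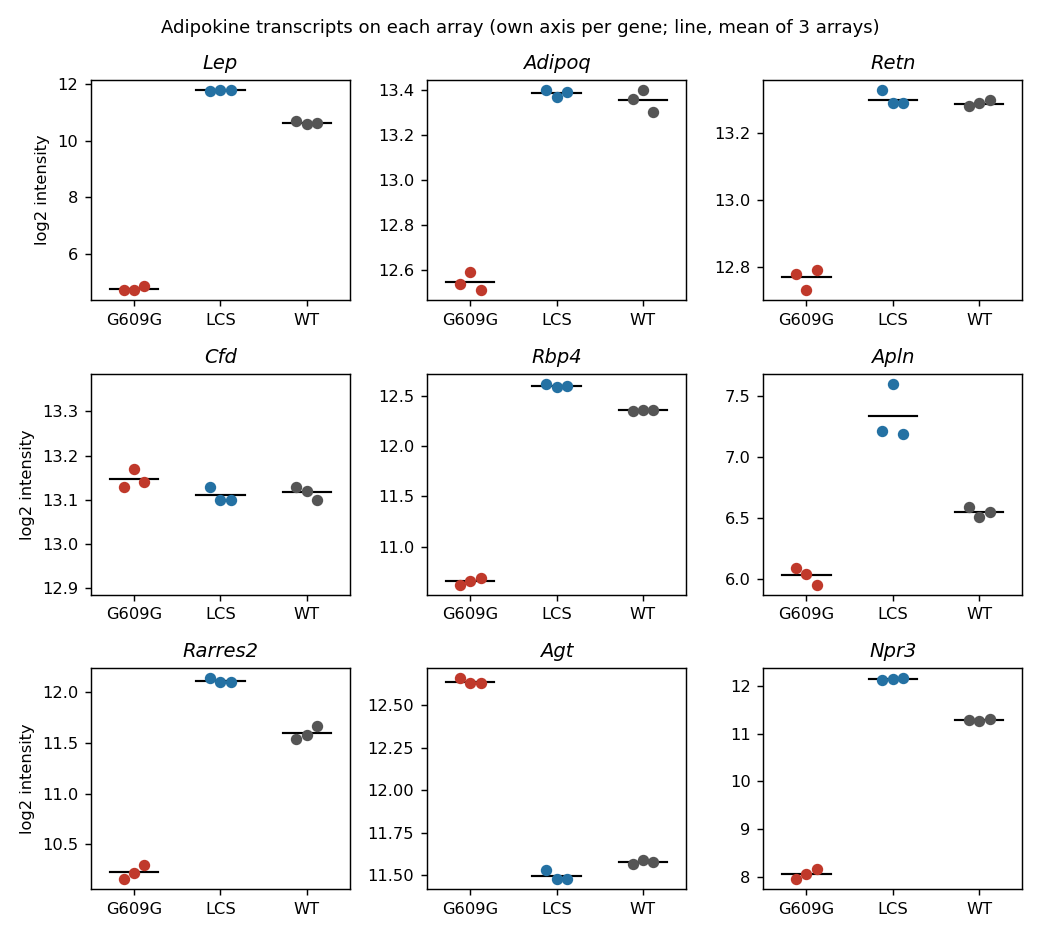
Log2 intensity of each gene (vertical axis, own range per panel) on the 3 arrays of G609G, LCS and WT; points are arrays and lines are group means. Lep and Npr3 are lowest in G609G and highest in LCS, Agt is highest in G609G, and the Cfd points overlap between all 3 groups.

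Lep encodes leptin, the hormone that reports fat stores to the brain. Its log2 intensity was 4.70, 4.73 and 4.85 on the G609G arrays, 11.75, 11.78 and 11.80 on the LCS arrays, and 10.70, 10.58 and 10.62 on the WT arrays. The 3 groups did not overlap, with G609G far below and LCS above WT. The log2 fold was -5.87 in G609G minus WT (SE 0.06, limma adjusted p = 1.36e-17), or 58.6-fold lower, and -5.41 relative to the median gene. Since the G609G mean of 4.76 lies under the gene filter of 5.09, the size of this fall may be understated. Its log2 fold in LCS minus WT was 1.14 (SE 0.06, limma adjusted p = 2.25e-09), or 2.21-fold higher, with 46 of 11342 genes showing a higher fold. Between the mutants Lep was 129-fold lower in G609G than in LCS, with the same limit on its size.

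Adipoq encodes adiponectin, an abundant plasma protein made almost only by adipocytes. It read 12.54, 12.59 and 12.51 in G609G, 13.40, 13.37 and 13.39 in LCS, and 13.36, 13.40 and 13.30 in WT. G609G lay below the other groups, while LCS and WT overlapped. The log2 fold was -0.81 in G609G minus WT (SE 0.03, limma adjusted p = 1.21e-12) and -0.34 relative to the median gene (adjusted p = 2.91e-05). For LCS minus WT it was 0.03, with a 95% interval of -0.02 to 0.09 (adjusted p = 0.343). Of all genes, 26.7% had a lower fold than Adipoq in G609G minus WT.

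Retn encodes resistin, which in mice is secreted by white adipocytes and opposes insulin action. Its values were 12.78, 12.73 and 12.79 in G609G, 13.33, 13.29 and 13.29 in LCS, and 13.28, 13.29 and 13.30 in WT, so that again only G609G stood apart from the others. The log2 fold as deposited was -0.52 in G609G minus WT (SE 0.02, limma adjusted p = 6.51e-12). Relative to the median gene it was -0.05 (adjusted p = 0.0993), and 46.2% of all genes had a lower fold. Retn showed 0.01 in LCS minus WT, with a 95% interval of -0.03 to 0.05 (adjusted p = 0.646).

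Rbp4 encodes the plasma carrier of retinol, which fat releases in addition to liver. It read 10.62, 10.66 and 10.69 in G609G, 12.62, 12.59 and 12.60 in LCS, and 12.35, 12.36 and 12.36 in WT. No group overlapped another, and the order was G609G, WT, LCS from low to high. Rbp4 was 3.25-fold lower in G609G than in WT, a log2 fold of -1.70 (SE 0.03, limma adjusted p = 3.43e-16) that was -1.24 relative to the median gene. The rise in LCS was small, 0.25 on the log2 scale (SE 0.03, limma adjusted p = 2.88e-06).

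Rarres2 encodes chemerin, which is secreted as an inactive precursor and trimmed by proteases into a ligand of Cmklr1. The arrays gave 10.16, 10.22 and 10.30 in G609G, 12.14, 12.10 and 12.10 in LCS, and 11.54, 11.58 and 11.67 in WT. The order was the same as for Rbp4, without overlap. Rarres2 was 2.58-fold lower in G609G than in WT (log2 fold -1.37, SE 0.04, limma adjusted p = 6.96e-13; -0.91 relative to the median gene) and 1.43-fold higher in LCS than in WT (log2 fold 0.52, SE 0.04, limma adjusted p = 1.94e-07).

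Cfd encodes adipsin, the serine protease that cuts factor B and so forms the C3 convertase of the alternative complement pathway. Its log2 intensity was 13.13, 13.17 and 13.14 in G609G, 13.13, 13.10 and 13.10 in LCS, and 13.13, 13.12 and 13.10 in WT, with all 3 groups overlapping. The log2 fold was 0.03 in G609G minus WT, with a 95% interval of -0.01 to 0.07 (limma adjusted p = 0.127), and -0.01 in LCS minus WT, with an interval of -0.04 to 0.03 (adjusted p = 0.808). Relative to the median gene, which fell in G609G, Cfd was higher there by 0.49 (SE 0.03, limma adjusted p = 6.95e-08). All 5 of its probe sets had a WT mean above 12, and 521 of the probe sets of all genes had one of 13 or more, on a scale whose highest value was 14.38.

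Apln encodes the precursor of apelin, a peptide ligand of the receptor Aplnr that insulin induces in adipocytes. It read 6.09, 6.04 and 5.95 in G609G, 7.21, 7.60 and 7.19 in LCS, and 6.59, 6.51 and 6.55 in WT. The groups did not overlap, and the LCS arrays were the most spread. In LCS minus WT the log2 fold was 0.78 (SE 0.11, limma adjusted p = 5.68e-05), with 156 of 11342 genes showing a higher one. The log2 fold of -0.52 in G609G minus WT (SE 0.11, limma adjusted p = 0.000498) was -0.06 relative to the median gene (adjusted p = 0.657). It also moved with the summary of the probe sets, and was -1.89 (adjusted p = 2.03e-07) as their plain median per array.

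Agt encodes angiotensinogen, the substrate that renin cuts to angiotensin I. Its values were 12.66, 12.63 and 12.63 in G609G, 11.53, 11.48 and 11.48 in LCS, and 11.57, 11.59 and 11.58 in WT. G609G lay above the other groups by about 1, and the LCS arrays lay just under those of WT. The log2 fold in G609G minus WT was 1.06 (SE 0.02, limma adjusted p = 4.02e-14), or 2.08-fold higher, and 1.52 relative to the median gene. The log2 fold in LCS minus WT was -0.08 (SE 0.02, limma adjusted p = 0.0155), a call that was lost without WT replicate 2, LCS replicate 2 or LCS replicate 3 (adjusted p = 0.0509, 0.0547 and 0.0689).

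Npr3 encodes the receptor that binds natriuretic peptides and takes them up for degradation. It read 7.95, 8.06 and 8.15 in G609G, 12.13, 12.16 and 12.17 in LCS, and 11.30, 11.28 and 11.31 in WT. The order was that of Lep, with G609G lowest and LCS highest and no overlap. Npr3 was 9.46-fold lower in G609G than in WT, a log2 fold of -3.24 (SE 0.05, limma adjusted p = 2.82e-16) that was -2.78 relative to the median gene. Its fold in LCS minus WT was 0.85 on the log2 scale (SE 0.05, limma adjusted p = 3.86e-09), or 1.81-fold higher.

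Between the mutants the log2 folds of G609G minus LCS were -7.02 for Lep, -4.10 for Npr3, -1.95 for Rbp4, -1.89 for Rarres2, -1.31 for Apln, -0.84 for Adipoq and -0.53 for Retn, each called by limma. Relative to the median gene Retn was -0.03 there and not called (adjusted p = 0.298), and against mature adipocyte genes it turned to 0.58. Agt was higher in G609G than in LCS by 1.14 (SE 0.02, limma adjusted p = 1.37e-14). Cfd showed 0.04, with a 95% interval of -0.000691 to 0.074 (limma adjusted p = 0.0664), and 0.53 relative to the median gene (adjusted p = 2.72e-08). For Lep, Npr3, Rbp4, Rarres2 and Apln the order of levels was thus G609G, WT, LCS with each step called as deposited. For Adipoq and Retn the step between WT and LCS was not called. Of all genes, 71.3% were called lower in G609G than in WT and 22.5% higher in LCS than in WT. The step of Apln between G609G and WT was -0.06 and not called relative to the median gene (limma adjusted p = 0.657). The 2 mutant-against-WT comparisons share their WT arrays. The methods' t-test, an unpaired comparison of 2 groups that also asks for a fold of 1.5, called 6 of the 9 genes between G609G and WT, 3 between LCS and WT (Lep, Npr3 and Apln) and 7 between the mutants after Benjamini-Hochberg adjustment, against 44.3%, 8.31% and 47.1% of all genes.

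How far each gene stood apart in G609G depended on what it was set against. Relative to the median gene, 5 of the 9 genes were lower and 2 higher in G609G than in WT, against 36.7% and 34% of all genes. Those lower were Lep, Npr3, Rbp4, Rarres2 and Adipoq, and those higher were Agt and Cfd. On the same scale 5 were higher and 1 lower in LCS than in WT, against 22.3% and 17.7% of all genes, and 6 were lower and 2 higher in G609G than in LCS, against 36.9% for each direction. Quantile normalization, which gives all arrays the same distribution, left 6 lower and 2 higher in G609G than in WT (37.9% and 31.1% of all genes), 5 higher and 2 lower in LCS than in WT (23.5% and 17.7%), and 7 lower and 2 higher in G609G than in LCS (38.7% and 32.2%). Set against the mean of 31 mature adipocyte genes that are no members, 4 were lower and 5 higher in G609G than in WT, against 14.5% and 68.2% of all genes. Lep was then at -4.96, Npr3 at -2.33, Rbp4 at -0.79 and Rarres2 at -0.46, each still called lower by limma. The direction of 3 genes turned: Adipoq was 0.11 (adjusted p = 0.0331), Retn 0.40 (adjusted p = 9.37e-09) and Apln 0.39 (adjusted p = 0.00794). Cfd was higher by 0.94 and Agt by 1.97 on that scale.

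In LCS the same scaling left Lep at 0.95, Npr3 at 0.66, Apln at 0.59 and Rarres2 at 0.32 above WT, each called by limma. Rbp4 was 0.05 (adjusted p = 0.101). Adipoq at -0.16 (adjusted p = 0.00741) and Retn at -0.18 (adjusted p = 5.52e-05) then stood below WT, as did Cfd at -0.20 and Agt at -0.28, so that 4 were called higher and 4 lower, against 10.6% and 39.6% of all genes on that scale. Of the folds between the mutants, 4 were then called lower and 4 higher in G609G than in LCS, against 11.8% and 76% of all genes.

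**Figure D2:**
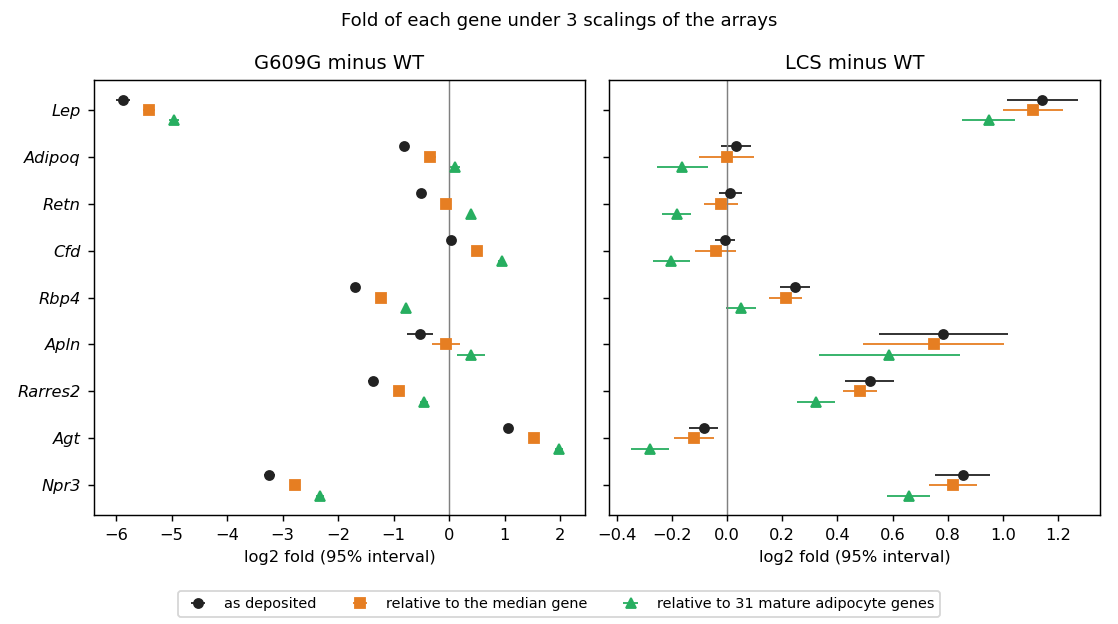
Log2 fold of each gene (horizontal axis, with its 95% interval) in G609G minus WT and in LCS minus WT, as deposited, relative to the median gene and relative to 31 mature adipocyte genes. In G609G Lep, Npr3, Rbp4 and Rarres2 stay left of 0 and Agt stays right of it under the 3 scalings, while Adipoq, Retn and Apln cross 0 on the adipocyte scale.

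The probe sets of a gene read different stretches of its transcript. Of the 59, 58 lay above the probe set filter of 5.01 and were tested, and in G609G minus WT 42 were called lower and 9 higher, against 52.3% and 7.49% of all probe sets. The 9 called higher were the 9 probe sets of Agt. All 5 of Lep, all 10 of Npr3, all 3 of Rarres2, all 5 of Adipoq, all 6 of Retn and 10 of the 11 of Rbp4 were called lower. Of the 4 tested of Apln, 3 were called lower. Between LCS and WT 28 were called higher and 2 lower, against 7.88% and 6.01% of all probe sets. Those higher held all 5 of Lep, all 10 of Npr3, all 3 of Rarres2 and 7 of Rbp4. They also held 2 of the 4 tested of Apln and 1 of Cfd, and the 2 called lower were of Agt. Between the mutants 44 were called lower and 10 higher in G609G than in LCS, against 53.4% and 8.41%.

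The probe sets of Lep had log2 folds of -6.96 to -5.58 in G609G minus WT. Their G609G means were 3.79, 4.48, 4.54, 4.81 and 5.84, so 4 of the 5 lay under the filter of 5.01 there. In WT the same probe sets had means of 9.67, 10.06, 11.50, 10.46 and 11.61. The steepest, probe set 5591219, fell by 6.96, and limma's diffSplice called it apart from the others of the gene (adjusted p = 7.53e-07). For Npr3 the folds ran from -4.08 to -2.51, and for Rarres2 from -1.38 to -1.34.

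In Adipoq, Retn and Agt the dimmest probe set moved most. Probe set 4525071 of Adipoq, with a WT mean of 11.43, had a log2 fold of -1.92 in G609G minus WT (limma adjusted p = 2.99e-10), while the others, with WT means of 12.70 or more, had folds of -0.88 to -0.64. Retn had -1.49 in probe set 5549688, whose WT mean was 8.27, against -0.60 to -0.37 in its others, whose WT means lay between 12.69 and 13.71. The dimmest probe set of Agt, 4704460, with a WT mean of 9.55, rose by 1.69, and its 3 brightest by 0.68 to 0.83. With probe sets of a mean above 12 left out, an alternative added after the data were seen, the fold was -1.92 for Adipoq and -1.49 for Retn, each from 1 probe set, 1.19 for Agt and without a value for Cfd.

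Over all genes, 521 probe sets had a WT mean of 13 or more, and in G609G minus WT their median log2 fold was -0.42, with a 10th percentile of -1.58 and a 90th percentile of -0.02. Among 14418 probe sets with a WT mean between 10 and 11 the median was -0.46, with percentiles of -1.42 and 0.21. For LCS minus WT the same percentiles were -0.23 and 0.19 in the brighter class and -0.32 and 0.39 in the other. The Cfd probe sets, with folds of -0.02 to 0.07 in G609G minus WT, lay near or above the 90th percentile of their bands, which was 0.02 for WT means between 12 and 13. The part of the upper end of the scale in the folds of Adipoq, Retn, Cfd and Agt was not tested.

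DiffSplice, which sets each probe set against the others of its gene, called 13 of the 58 between G609G and WT, 0 between LCS and WT and 17 between the mutants, against 15.6%, 1.85% and 18.2% of all probe sets. Of the 58, 6 had an unadjusted diffSplice p under 0.05 in LCS minus WT, against 8.13% of all probe sets. The splicing index, a limma fit of each probe set minus its gene, also called 0 there, with 3 at an unadjusted p under 0.05, against 9.1% of all. One probe set of Apln, 4538501, showed -2.35 in G609G minus WT (limma adjusted p = 8.33e-07) beside -0.09 to -1.09 in its others. Probe set 4952285 of Rbp4, with a WT mean of 7.02, showed -0.63 and was the one of the gene not called lower (limma adjusted p = 0.0847).

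**Figure D3:**
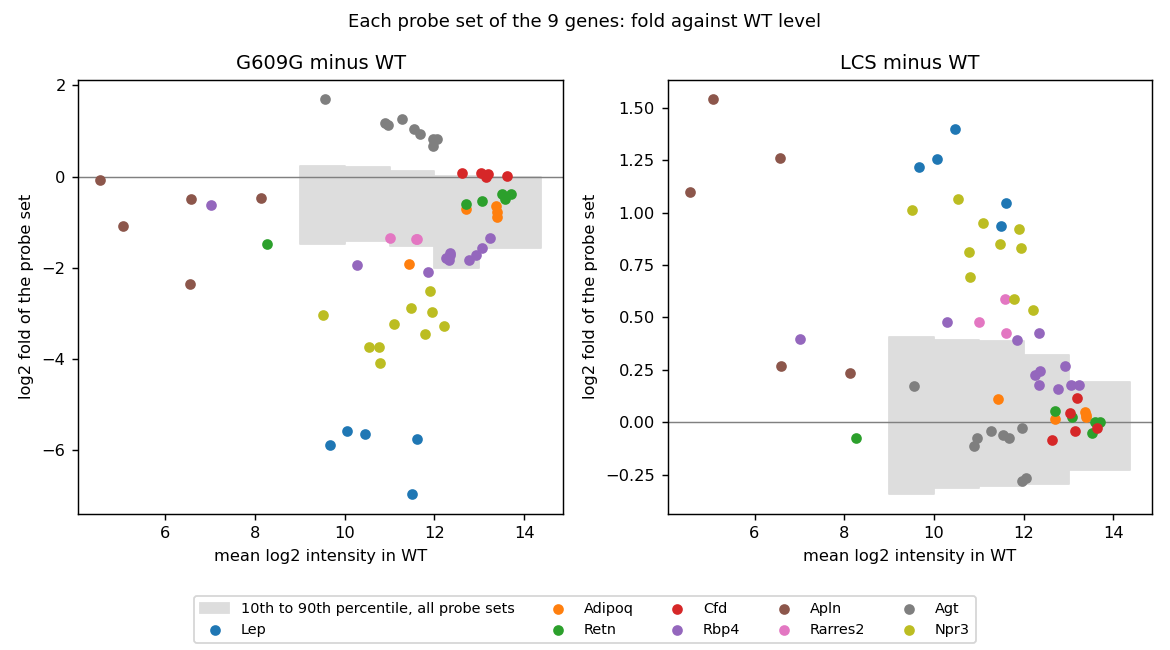
Log2 fold of each of the 59 probe sets (vertical axis) against its mean log2 intensity in WT (horizontal axis), coloured by gene, for G609G minus WT and LCS minus WT; grey bands span the 10th to 90th percentile of all probe sets with a WT mean of 9 or more. Lep and Npr3 lie below the bands in G609G and above them in LCS, and the dim probe sets of Adipoq and Retn lie below the bright ones in G609G.

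Some probe sets carry the symbol of a second gene besides the member's, 2 for Cfd (with Traf3ip3) and 3 for Rarres2 (with Lrrc61), and were left out above. With them included, an alternative added after the data were seen, the fold of Cfd in G609G minus WT was 0.07 (SE 0.02, limma adjusted p = 0.00864) and that of Rarres2 -1.39. The signal of these probe sets cannot be assigned to either gene.

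The genes whose log2 values over the 9 arrays were nearest to a member's, each gene centred on its own mean, were listed by root mean square distance. For Lep they were Rnase10 (distance 0.225), Ovch2 (0.277), Adam28 (0.291), Lcn10 (0.308) and Cst11 (0.347). Rnase10 and Cst11 are on the list of epididymis and testis genes used here. That list is a selection of 20 genes, so absence from it does not tell where the other genes are expressed. Cst11, a cystatin, averaged 5.67 ± 0.08 in G609G, 12.82 ± 0.02 in LCS and 12.32 ± 0.02 in WT (SD, n = 3 arrays each). Most of its list did not share that order. Of 16 tested genes of the list, 4 (25%) were called higher and 10 (62.5%) lower in LCS than in WT as deposited. Of all genes, 22.5% were higher and 13% lower there. The median log2 fold of the 16 was -1.57. The part of epididymal RNA in the Lep values was not tested.

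For Npr3 the nearest were Vnn1 (0.0709), Tmem45b (0.144) and Odz4 (0.148), and for Rbp4 Itih5 (0.0291), Aqp7 (0.0317) and Lcn2 (0.0369). Aqp7 is the glycerol channel of adipocytes and Lcn2 a lipocalin that fat secretes. Rarres2 was nearest to Itga6 (0.0367), Mecr (0.0385) and F13a1 (0.0505), and Agt to Sar1b (0.0500), Mreg (0.0656) and Mcart1 (0.0698). Adipoq was nearest to Tmem30a, Pank2 and Nedd8, Retn to Dhx37, Gsn and Tmem109, Cfd to Anapc5, Dcn and Cat, and Apln to Cd79a, Bhlhe40 and Cyp2s1. These distances describe 3 groups of arrays and are no test.

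Of 16 receptors and binding partners of the products, 11 were tested. As deposited 1 (9.09%) was higher and 8 (72.7%) were lower in G609G than in WT, against 8.26% and 71.3% of all genes. Their median log2 fold was -0.63 beside -0.47 for all genes. Relative to the median gene 4 (36.4%) were higher and 3 (27.3%) lower, against 34% and 36.7% of all genes. The one called higher as deposited was Lepr, the leptin receptor, which averaged 7.75 ± 0.19 in G609G, 5.23 ± 0.05 in LCS and 5.57 ± 0.04 in WT (SD, n = 3 arrays each). Its log2 fold was 2.18 in G609G minus WT (SE 0.10, limma adjusted p = 8.98e-11) and -0.34 in LCS minus WT (SE 0.10, limma adjusted p = 0.0155), so receptor and hormone stood on opposite sides of WT in each mutant. The LCS and WT means of Lepr lie near the gene filter of 5.09, so the LCS side rests on a small difference between dim values.

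Cmklr1, the chemerin receptor, averaged 8.07 ± 0.08 in G609G, 10.36 ± 0.04 in LCS and 9.67 ± 0.04 in WT (SD, n = 3 arrays each). Its log2 folds of -1.60 in G609G minus WT and 0.69 in LCS minus WT, both called by limma, had the signs of those of Rarres2. Aplnr, the apelin receptor, showed -0.90 in G609G minus WT (limma adjusted p = 0.00317), which was -0.43 relative to the median gene (adjusted p = 0.16), and 0.86 in LCS minus WT (limma adjusted p = 0.011). Of the adiponectin receptors, Adipor2 fell by 0.69 in G609G and Adipor1 by 0.11 as deposited, while relative to the median gene Adipor2 was at -0.23 and Adipor1 was higher by 0.35. Stra6, the cell surface receptor of Rbp4, and Ttr, its partner in plasma, were lower in both mutants as deposited, at -0.66 and -0.63 in G609G minus WT and -0.36 and -0.90 in LCS minus WT, while relative to the median gene the G609G values were -0.20 and -0.17 (adjusted p = 0.199 and 0.2). Gpr1, Agtr1b, Agtr2 and Mas1 lay under the gene filter and were not tested.

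Of 12 tested enzymes and partners that process angiotensinogen and its peptides, 11 were called in G609G minus WT as deposited, each lower (91.7%, against 71.3% of all genes), with a median log2 fold of -1.02 beside -0.47 for all genes. Relative to the median gene 2 (16.7%) were higher and 9 (75%) lower, against 34% and 36.7% of all genes. Ace, which turns angiotensin I into angiotensin II, averaged 9.37 ± 0.06 in G609G, 10.65 ± 0.01 in LCS and 11.57 ± 0.02 in WT (SD, n = 3 arrays each), a log2 fold of -2.21 in G609G minus WT (limma adjusted p = 2.68e-15) and -0.92 in LCS minus WT (limma adjusted p = 2.69e-10). Enpep, the aminopeptidase that trims angiotensin II, showed -1.96 in G609G minus WT, and Anpep, another aminopeptidase, -1.95, both called by limma. Ace, Enpep and Anpep act on peptides cut from the product of Agt, which stood above WT in G609G fat. Agtr1a, the angiotensin receptor, showed -0.38 in G609G minus WT (limma adjusted p = 0.00233) and 0.08 relative to the median gene (adjusted p = 0.361). Of the 12, 6 (50%) were called higher and 3 (25%) lower in LCS fat, against 22.5% and 13% of all genes.

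Around Npr3, 8 further genes of the natriuretic peptide system were tested, of which 2 were called higher and 1 lower in G609G than in WT as deposited, against 8.26% and 71.3% of all genes. On the scale of the median gene 7 were called, each higher, against 34% of all genes. Of these, Nppc, Corin, Furin, Prkg1 and Pde9a were not called as deposited (0.03, -0.003, -0.04, 0.18 and 0.005). Their calls thus rest on the subtracted fall of the median gene. The WT means of Corin (5.22), Prkg1 (5.51) and Pde9a (5.86) lie near the gene filter, so a fall in them may be understated. Npr1, the guanylyl cyclase receptor that signals for atrial and B-type peptides, averaged 9.28 ± 0.10 in G609G, 8.44 ± 0.04 in LCS and 8.20 ± 0.13 in WT (SD, n = 3 arrays each). Its log2 fold of 1.08 in G609G minus WT (SE 0.08, limma adjusted p = 8.76e-09) was opposite to the -3.24 of Npr3. In LCS fat both were higher, Npr1 by 0.24 (limma adjusted p = 0.0233) and Npr3 by 0.85. Npr2, the C-type peptide receptor, showed -0.57 in G609G minus WT (limma adjusted p = 2.2e-05) and -0.10 relative to the median gene (adjusted p = 0.157). Nppa and Nppb, which encode the atrial and B-type peptides, lay under the gene filter.

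**Figure D4:**
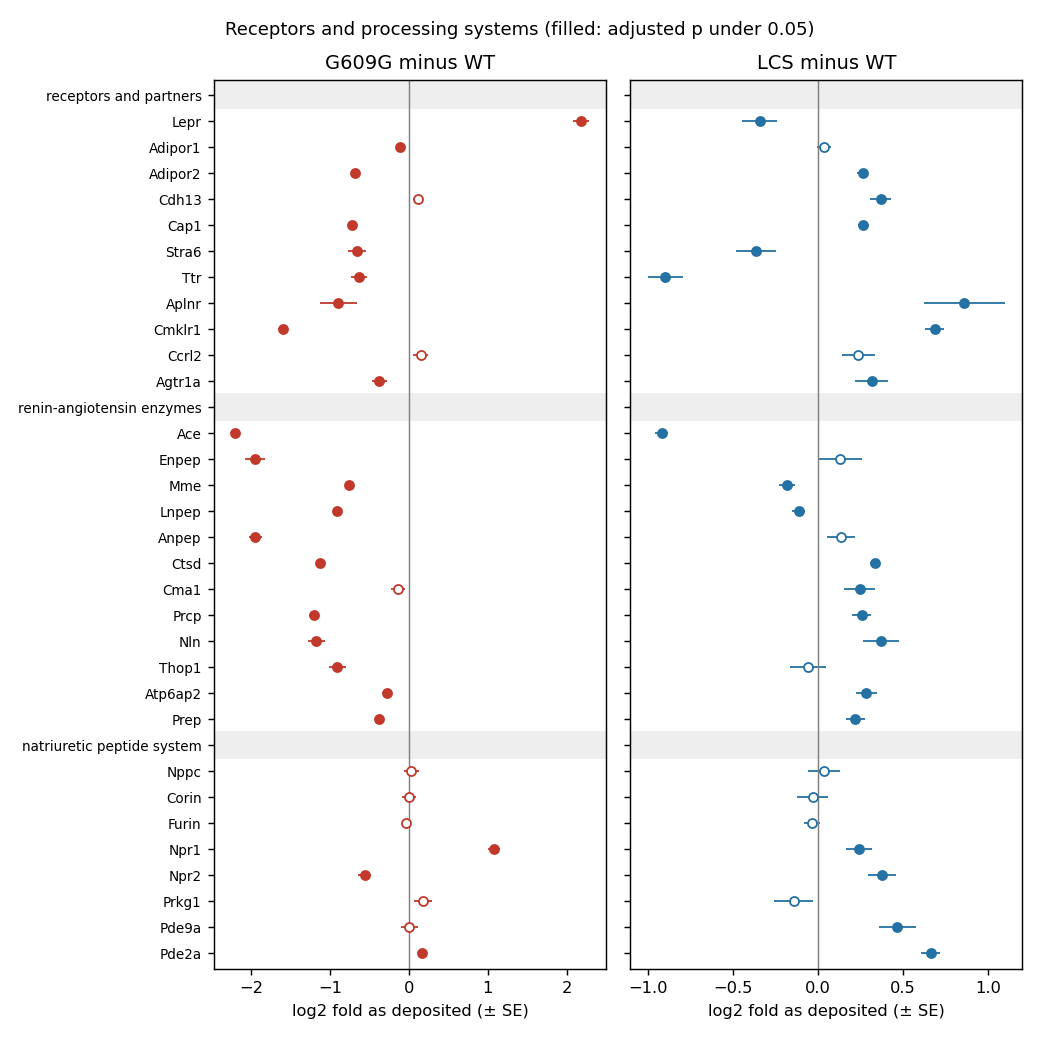
Log2 fold as deposited (horizontal axis, ± SE) of receptors and partners, of renin-angiotensin enzymes and of natriuretic peptide genes in G609G minus WT and LCS minus WT, filled where the limma adjusted p is under 0.05. Lepr at 2.18 and Npr1 at 1.08 lie furthest right in G609G, and Ace at -2.21 lies furthest left.

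The partners of adipsin in the alternative complement pathway were read from 5 tested genes. Cfb, the factor B that adipsin cuts, averaged 7.72 ± 0.16 in G609G, 10.07 ± 0.03 in LCS and 9.70 ± 0.09 in WT (SD, n = 3 arrays each), a log2 fold of -1.98 in G609G minus WT (SE 0.08, limma adjusted p = 1.24e-11). C3, the central component, showed 0.01 in G609G minus WT (limma adjusted p = 0.791), which was 0.47 relative to the median gene (adjusted p = 1.08e-08), and 0.15 in LCS minus WT (limma adjusted p = 0.000127). C3ar1, the receptor of the fragment C3a, showed -2.04 in G609G minus WT (limma adjusted p = 1.34e-11). Masp1, whose protease products act in complement activation, was higher by 1.14 (limma adjusted p = 1.93e-08). As deposited 1 of the 5 was thus higher and 3 lower in G609G (8.26% and 71.3% of all genes). Relative to the median gene 2 were higher and 2 lower, against 34% and 36.7% of all genes.

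Cpn1, also among the 5, a carboxypeptidase that trims chemerin and the complement fragments, fell by 4.15 on the log2 scale in LCS minus WT (SE 0.13, limma adjusted p = 7.48e-12). Its mean was 8.17 ± 0.13 in G609G, 4.78 ± 0.30 in LCS and 8.93 ± 0.14 in WT (SD, n = 3 arrays each). The LCS mean lies under the gene filter, so the size of this fall may be understated. In G609G minus WT it showed -0.75 (limma adjusted p = 0.000107) and -0.29 relative to the median gene (adjusted p = 0.0594).

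Of 41 other tested genes of proteins that fat secretes, 7 (17.1%) were called higher and 29 (70.7%) lower in G609G than in WT as deposited, against 8.26% and 71.3% of all genes. Set against the median gene, 14 (34.1%) were higher and 19 (46.3%) lower, against 34% and 36.7%. In LCS fat 25 (61%) were called higher and 5 (12.2%) lower, against 22.5% and 13%. The 4 with the lowest p among those lower in G609G were Lcn2 at -1.71, Sparc at -1.50, Thbs1 at -2.45 and Orm1 at -3.32, and all 4 stayed lower relative to the median gene. Those called higher with the lowest p were Mstn, the muscle growth inhibitor myostatin, at 5.0, Igfbp3 at 2.78, Nampt, the NAD salvage enzyme also called visfatin, at 1.68, and the cathepsin Ctsl at 0.45. Mstn averaged 8.80 ± 0.13 in G609G, 3.77 ± 0.10 in LCS and 3.81 ± 0.04 in WT (SD, n = 3 arrays each), so its LCS and WT means lie under the gene filter and the size of its rise may be understated. The skeletal muscle genes were also high in G609G alone, and their part in this value was not tested. Hp (haptoglobin) was higher in LCS than in WT by 0.65, Fbn1 (fibrillin, whose cut end is the hormone asprosin) by 0.97 and Sparc by 0.48, while Gpx3 was lower by 0.72 and Ptgds by 0.67.

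Among 22 tested regulators with known roles in the transcription or secretion of adipokines, 7 (31.8%) were called higher and 14 (63.6%) lower in G609G than in WT as deposited, against 8.26% and 71.3% of all genes. Set against the median gene, 9 (40.9%) were higher and 9 lower, against 34% and 36.7%. Cebpa, the adipocyte factor of the C/EBP family, averaged 8.73 ± 0.11 in G609G, 10.09 ± 0.05 in LCS and 9.92 ± 0.07 in WT (SD, n = 3 arrays each), a log2 fold of -1.19 in G609G minus WT (limma adjusted p = 3.46e-10) and -0.73 relative to the median gene. Cebpb, another factor of the family, was higher by 1.07 in G609G (limma adjusted p = 1.9e-07) and by 0.57 in LCS (limma adjusted p = 0.000447). Srebf1, a regulator of fatty acid synthesis, showed -1.22 in G609G minus WT and Foxo1, a factor that insulin holds out of the nucleus, 0.74, both called by limma. Pparg averaged 10.59 ± 0.07 in G609G, 10.59 ± 0.03 in LCS and 10.73 ± 0.09 in WT, and was lower in LCS by 0.14 (limma adjusted p = 0.0407). In G609G minus WT it was -0.14 as deposited (limma adjusted p = 0.0167) and 0.32 relative to the median gene (adjusted p = 1.68e-05). Of the 22, 7 (31.8%) were called higher and 3 (13.6%) lower in LCS fat, against 22.5% and 13%.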

How the data were processed

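Values of 9 exon arrays were taken as the authors deposited them, 1 log2 value per probe set and array. The log2 scale was read from the values. The software behind their normalization and summary was not given in the sources used here. Build mm9 is named in the submitters' processing notes. Groups and replicate numbers came from the sample titles. The design text of the series speaks of 10 samples, and 9 arrays were used here.

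The genes and lists described were chosen with earlier results of these data known. Genes were formed from probe sets with 1 symbol in the platform annotation by median polish (at most 10 rounds). A gene was tested if it had 3 or more probe sets and its mean exceeded the 25th percentile of 5.09, by limma over all 9 arrays (lmFit, then eBayes with a trend) at a Benjamini-Hochberg adjusted p of 0.05. Probe sets whose mean exceeded their 25th percentile of 5.01 were tested singly and with diffSplice. The methods text of the series gives an unpaired Student test with a fold cutoff of 1.5, run here as an alternative and called the methods' t-test. Further alternatives changed the summary, scaling, filters, variance model and arrays. The text names the 9 genes, any gene of the receptor, renin-angiotensin, natriuretic and complement lists, up to 4 genes with the lowest p per direction of the other adipokine and regulator lists, the nearest genes in profile, and the brightest markers. Pparg in G609G and the probe sets named by number were picked after their values were seen.

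Same-numbered G609G and WT arrays deviated together only weakly (r = 0.168, 0.145 and 0.337 over genes). The main fit took the arrays as unpaired, and a replicate block by array number was run as an alternative. Any pairing by number rests on the data, since the labels do not say what a number shares. No pair of arrays was identical. The gene fit, diffSplice and the median polish were tested on simulated data that held no shift common to most genes. The other steps, among them the scalings and the replicate block, were not. The array number limits the precision. Symbols were updated through a RefSeq gene table of GRCm38.p6, used for names only because it is not the build of the files. R 4.3.3, limma 3.58.1, data.table (version 1.17.8), Python 3.11.15, pandas 2.3.3 and matplotlib 3.10.9 were used.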

Additional observations from a re-analysis of the deposited data

How the results depend on the processing

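The falls of Lep, Npr3, Rbp4 and Rarres2 and the rise of Agt in G609G minus WT kept their direction and call under the alternatives run, as did the rises of Lep, Npr3 and Apln in LCS minus WT, with ranges of -5.97 to -4.96 for Lep in G609G minus WT and 0.95 to 1.40 in LCS minus WT. Over the chosen genes and all settings, 227 of 241 gene values kept their call or lack of one in G609G minus WT. The count was 215 of 232 in LCS minus WT and 221 of 232 in G609G minus LCS. A called fold also had to keep its direction, whereas an uncalled one could turn its sign and still be counted. Retn in LCS minus WT did so, at 0.01 in the main fit and -0.02 with quantile normalization, called in neither. Against 31 mature adipocyte genes the sign turned for Adipoq (0.11), Apln (0.39) and Retn (0.40) in G609G minus WT, Adipoq (-0.16) and Retn (-0.18) in LCS minus WT, and Adipoq (0.27) and Retn (0.58) in G609G minus LCS. On that scale the counts were 4 lower and 5 higher in G609G minus WT, 4 lower in LCS minus WT, and 4 lower and 4 higher in G609G minus LCS.

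The count called higher in G609G minus WT was 2 with quantile normalization, relative to the median gene and with probe sets of several symbols, each time Agt and Cfd. In G609G minus LCS it was 2 with quantile normalization, relative to the median gene and with array weights. The count called lower in LCS minus WT, 1 for Agt, was 2 with quantile normalization and 0 with the median of the probe sets, without a trend and without probe sets above 12, for which the cause was not tested. It was also 0 by the methods' t-test with and without adjustment, where Agt misses the fold of 1.5. Both forms of that test called 3 genes in LCS minus WT, all 3 higher, since Rbp4 and Rarres2 miss that fold as well. Leaving out 1 array at a time gave 0 to 1 lower in LCS minus WT and 1 to 2 higher in G609G minus LCS, the 2 without LCS replicate 1. The splicing index called 14 probe sets over the 3 comparisons against 30 by diffSplice. It was fitted per probe set by eBayes with a trend, and the cause of its lower count was not tested.

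Neither the replicate block over 9 arrays nor a replicate block on the G609G and WT arrays alone, added after the data were seen, changed a call of the 9 genes, with 8 called in G609G minus WT under each. In the other comparisons the same-numbered arrays correlated with r between -0.121 and 0.204, and 7 of 9 arrays correlated best with an array of their own number. The mean of Lep in G609G lies under the gene filter, so its folds may be understated, and the means of Adipoq, Retn and Cfd lie near the top of the scale.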
